A study of Rattus norvegicus with 3 samples.

Results

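Molecular chaperones and heat shock proteins were followed in the RNA of rat blood platelets loaded outside the body with an anticancer kinase inhibitor. Members were the features of the authors' matrix whose platform gene symbol begins with Hspa, Hspb, Hspd, Hspe or Hsph and a digit, with Hsp90, with Dnaja, Dnajb or Dnajc and a digit, or with Cct or Bag and a digit. The rule used symbols and no measured values, and it found 78 of 15037 named genes. They comprised 3 HSP90 genes, 12 HSP70 and HSP110 genes, 7 small heat shock protein genes, 2 genes of the mitochondrial chaperonin, 9 genes of the CCT chaperonin group, 6 BAG genes and 39 genes of J-domain proteins. Each member had 1 feature. Hspa1b, Hspa12b, Hspb11, Dnaja1 and Dnajb1 were not analysed here.

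The groups were measured on 1 array each. SOR-PLT were platelets loaded with sorafenib, LEN-PLT were platelets loaded with lenvatinib, and PLT were control platelets. All came from normal F344 rats, an inbred strain, and each array held total RNA from suspensions of 5 rats pooled within the group. Each drug was given at 10 µg for 30 minutes at 37 °C and the excess was then washed out. Whether PLT were incubated and washed in the same way is not stated in the labels used here, so drug and handling cannot be told apart. The labels used here give no age for the rats. Pooled RNA on 1 array a group leaves no replicates, so every difference below lies between single arrays, without a p-value or an error, and precision is limited by the number of arrays.

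Chaperones bind unfolded proteins and let them fold or be degraded. HSP70 proteins take up a client with the help of J-domain proteins and release it with the help of nucleotide exchange factors such as HSP110 and several BAG proteins. HSP90 acts later on partly folded clients, many of them kinases and receptors. The chaperonins are closed chambers, HSP60 with its lid HSP10 in mitochondria and CCT in the cytosol, where actin and tubulin are its main clients. When proteins unfold, heat shock factor 1 raises the transcription of inducible members in nucleated cells. Platelets lack a nucleus, and most of their RNA is inherited from the megakaryocyte that shed them. In bulk samples, fewer cells of a type and less RNA per cell cannot be told apart.

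Values are log2 signals as the authors deposited them, and a difference is always the drug array minus PLT, or SOR-PLT minus LEN-PLT between the drugs, in log2 units. Levels of different genes come from different probes and are not set against each other. The 95th percentile of 1153 negative control features, 7.69, served as a level above background. At least this level, as a mean over the arrays, was reached by 17 of 78 members (21.8%), against 13.0% of all named genes. Cct5, Dnaja2 and Cct8 lay just above it, with means of 7.81, 7.89 and 7.90, and Bag1 was the next below, with a mean of 6.84. Negative controls spread widely, their 99th percentile being 13.05, so this level is a rough guide. Taken on each array alone, it was 7.89 in SOR-PLT, 7.68 in LEN-PLT and 7.70 in PLT. It was then reached by 16 members in SOR-PLT and by 17 each in LEN-PLT and PLT. Cct5, at 7.86, was under it in SOR-PLT. None of the members reached the ceiling of the arrays, 19.93. The arrays were alike over all features, with medians of 4.22 for SOR-PLT, 4.22 for LEN-PLT and 4.21 for PLT.

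Platelet RNA was abundant on all arrays: 6 of 6 measured platelet markers lay above background, with medians of 19.58 in SOR-PLT, 19.54 in LEN-PLT and 19.54 in PLT. Pf4, Clec1b and Nrgn were at the ceiling on each array. Of 6 measured erythroid markers, 4 lay above background. The erythroid markers were higher in LEN-PLT than in PLT for 5 genes and tied for 1, which was at the ceiling, with a median difference of 0.50. Over the 4 above background that median was 0.10. In SOR-PLT 3 markers were higher than in PLT, 2 lower and 1 tied, with a median of 0.06. The log2 of the erythroid markers' summed linear signal was 20.41 in SOR-PLT, 20.44 in LEN-PLT and 20.43 in PLT. Hba-a1, at the ceiling on each array, and Hbb make up most of this sum, so it shows little of the other markers. T cell and B cell markers had 0 of 5 and 0 of 1 genes above background. The neutrophil and monocyte lists had 1 of 5 genes each above background, S100a9 and Lyz2, and the endothelial list had 2 of 4, Pecam1 and Vwf, which platelets also carry. The part of these other cells in the values of chaperone genes was not tested.

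Chaperone transcripts differed little between the arrays. No member was 2-fold apart in any comparison. In SOR-PLT against PLT this was 0 of 78 higher and 0 lower, where 0.213% and 0.299% of all named genes were 2-fold higher and lower. In LEN-PLT against PLT it was again 0 and 0, where 0.279% and 0.259% of all named genes were. Between SOR-PLT and LEN-PLT it was 0 and 0 as well, beside 0.113% and 0.186%. A list of 78 genes is too short for an absence of 2-fold differences to set it apart from such shares.

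At 1.5-fold, a log2 difference of 0.585, the members' counts stayed small. SOR-PLT had 3 members higher and 1 lower than PLT, and 2.22% and 2.21% of all named genes were higher and lower by this measure. LEN-PLT had 2 members higher and 2 lower than PLT, beside 2.66% and 2.39% of all named genes. Between SOR-PLT and LEN-PLT 0 members were higher and 0 lower, beside 1.94% and 1.96%. These comparisons share arrays, SOR-PLT and LEN-PLT both being set against the same PLT array. In all, 5 of 78 members (6.41%) had a highest and a lowest array at least 1.5-fold apart, against 8.80% of all named genes, so the share was near the background.

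The median difference of the members was 0.00 in each of the 3 comparisons, as it was over all named genes. In SOR-PLT against PLT 26 members were higher, 23 lower and 29 tied, and 30.5% of all named genes were tied. In LEN-PLT against PLT 25 were higher, 28 lower and 25 tied, and 29.5% of all named genes were tied. Between the drugs 29 were higher in SOR-PLT, 25 lower and 24 tied, beside 32.1% of all named genes tied. The same value on all arrays was found for 14 members (17.9%) and for 17.3% of all named genes. The cause of exact ties was not tested, and a tie does not show that a transcript was equal.

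**Figure D1:**
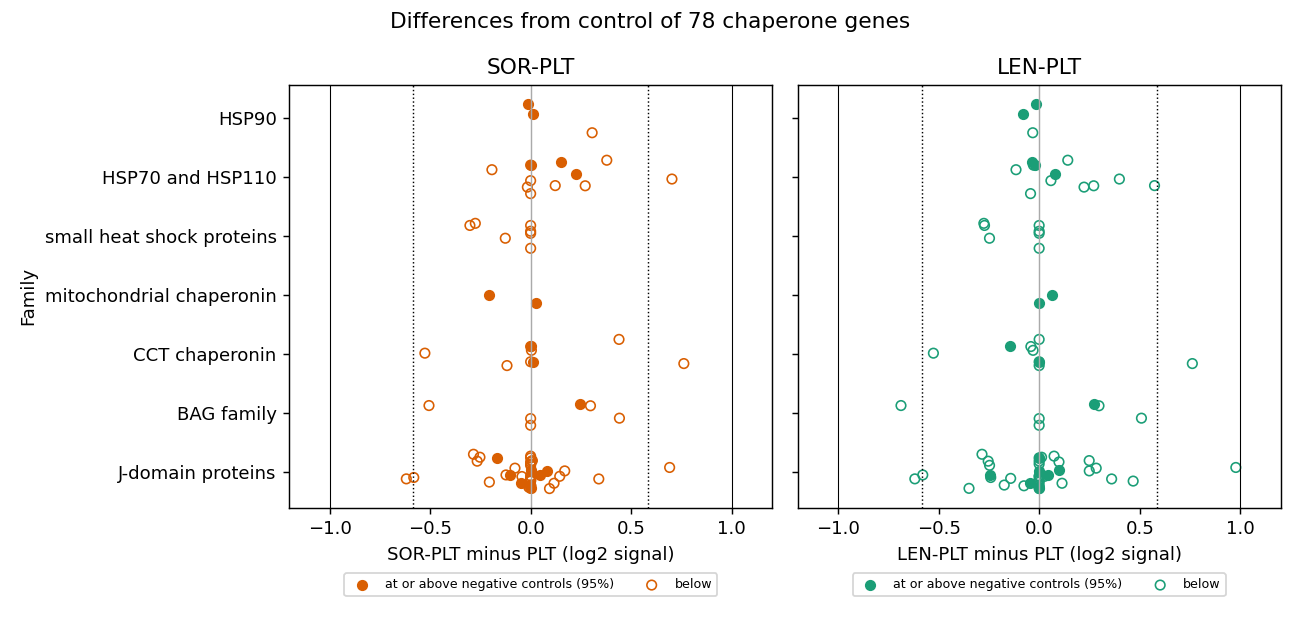
Differences in log2 signal of 78 chaperone genes by family, for SOR-PLT minus PLT (left) and LEN-PLT minus PLT (right), 1 array a group. Filled points are members above background (the 95th percentile of negative controls), open points those below, dotted lines mark 1.5-fold and solid lines 2-fold; the filled points stay within 0.28 of 0 and the points past a dotted line are open.

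Members above background were closer together across arrays than those below. The highest minus the lowest array had a median of 0.09 over the 17 members above background and at most 0.28, beside a median of 0.19 over the 1961 named genes above background. None of the 17 had arrays 1.5-fold apart, where 8.82% of those 1961 genes did. Below background the median was 0.19 for 61 members and 0.16 for 13076 genes. No test is possible on single arrays, and nothing particular to chaperones follows from these medians.

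**Figure D2:**
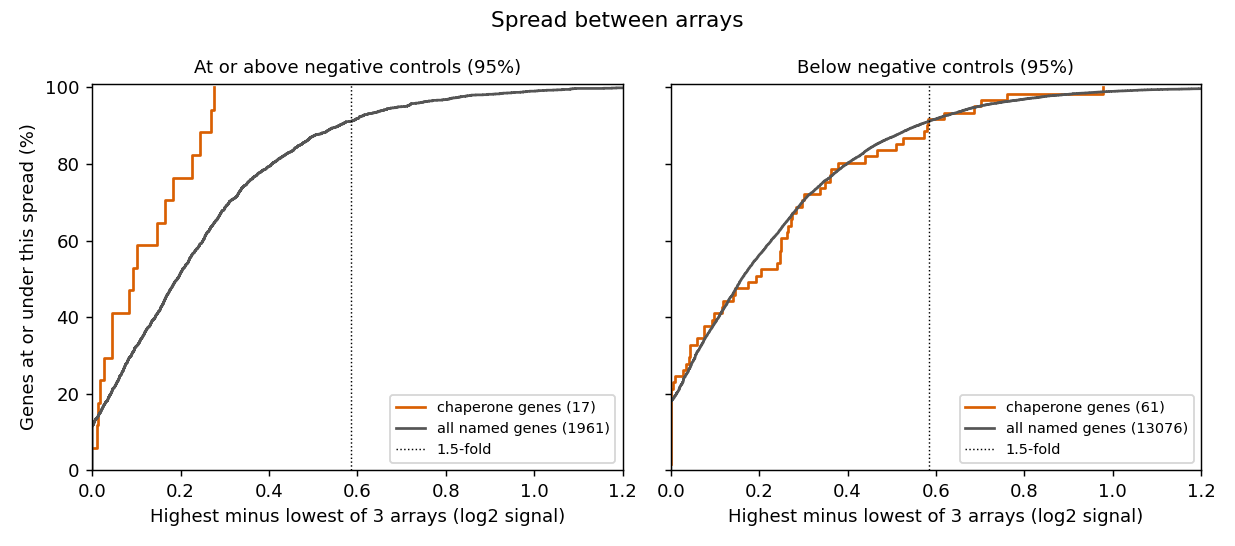
Cumulative share of genes (y axis, percent) at or under a given spread between arrays (x axis, highest minus lowest log2 signal of the 3 arrays), for chaperone genes and for all named genes, above (left) and below (right) background, the 95th percentile of negative controls. On the left all 17 chaperone genes lie under a spread of 0.28, and on the right both curves run close together.

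The promoters of a few members are shown because they carry sequence motifs known from the stress regulation of some chaperone genes. Promoter windows, from 250 bases before the start site to 50 from it on, came from RefSeq on assembly GRCr8 and were found for 65 of 78 members. The 3-unit heat shock element, GAANNTTCNNGAA or on the other strand TTCNNGAANNTTC, was present in 5 of these 65 (7.69%) and in 0.736% of 27457 promoters. The endoplasmic reticulum stress response element, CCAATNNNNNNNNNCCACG or on the other strand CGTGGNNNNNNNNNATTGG, was present in 3 of 65 (4.62%) and in 0.0765% of all promoters. A CCAAT box, which that element contains, was present in 43.1% of the members' promoters and 37.7% of all. Capitals mark the heat shock element in the first 4 sequences and the endoplasmic reticulum element in the last 2, all written 5′ to 3′ on the gene's strand.
Hspa8, chr8:50080264-50080563, plus strand: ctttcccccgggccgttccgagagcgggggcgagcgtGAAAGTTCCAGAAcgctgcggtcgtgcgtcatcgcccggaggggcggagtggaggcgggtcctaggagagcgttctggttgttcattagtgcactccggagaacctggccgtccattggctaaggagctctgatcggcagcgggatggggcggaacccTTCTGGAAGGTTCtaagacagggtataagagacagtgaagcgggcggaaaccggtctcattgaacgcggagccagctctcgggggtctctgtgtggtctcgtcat
Hspd1, chr9:64083988-64084287, minus strand: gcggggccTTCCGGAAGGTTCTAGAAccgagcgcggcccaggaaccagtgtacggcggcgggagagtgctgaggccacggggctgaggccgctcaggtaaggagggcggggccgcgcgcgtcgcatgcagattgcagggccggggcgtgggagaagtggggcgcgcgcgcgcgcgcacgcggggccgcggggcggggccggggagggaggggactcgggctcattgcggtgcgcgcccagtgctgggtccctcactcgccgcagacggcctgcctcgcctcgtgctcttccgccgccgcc
Hsph1, chr12:10427118-10427417, plus strand: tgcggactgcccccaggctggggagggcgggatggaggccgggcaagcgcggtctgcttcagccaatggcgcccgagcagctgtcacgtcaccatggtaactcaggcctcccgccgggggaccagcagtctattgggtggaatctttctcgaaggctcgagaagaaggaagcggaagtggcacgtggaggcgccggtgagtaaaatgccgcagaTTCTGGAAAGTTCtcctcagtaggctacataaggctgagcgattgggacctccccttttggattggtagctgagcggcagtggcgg
Cct4, chr14:101192807-101193106, plus strand: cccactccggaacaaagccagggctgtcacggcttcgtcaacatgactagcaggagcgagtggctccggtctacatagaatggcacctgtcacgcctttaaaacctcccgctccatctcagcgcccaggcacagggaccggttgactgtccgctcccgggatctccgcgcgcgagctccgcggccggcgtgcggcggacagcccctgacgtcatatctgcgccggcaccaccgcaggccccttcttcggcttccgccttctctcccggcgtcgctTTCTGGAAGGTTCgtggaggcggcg
Hspa5, chr3:38452766-38453065, plus strand: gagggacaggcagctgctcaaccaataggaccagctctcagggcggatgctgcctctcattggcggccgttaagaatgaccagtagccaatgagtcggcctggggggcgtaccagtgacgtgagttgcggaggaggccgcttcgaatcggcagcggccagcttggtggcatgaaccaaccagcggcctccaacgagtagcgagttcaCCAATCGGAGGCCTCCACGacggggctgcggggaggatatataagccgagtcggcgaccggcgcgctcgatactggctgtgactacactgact
Hsp90b1, chr7:23012244-23012543, minus strand: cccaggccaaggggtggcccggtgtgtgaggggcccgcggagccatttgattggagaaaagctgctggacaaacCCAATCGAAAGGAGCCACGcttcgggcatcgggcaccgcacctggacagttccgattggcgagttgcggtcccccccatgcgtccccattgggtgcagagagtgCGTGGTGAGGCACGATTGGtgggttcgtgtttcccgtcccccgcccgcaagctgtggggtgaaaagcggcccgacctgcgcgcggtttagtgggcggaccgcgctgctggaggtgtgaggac

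Genes with these motifs lay on both sides of the background level. Of the genes whose promoter held the heat shock element, Hspa8, Hspd1 and Hspe1 were above background, and Hsph1 and Cct4 were below it. The windows of Hspa1a, Hspa4l, Hspb1, Hspb8 and Bag3, counted as heat-inducible here, held no 3-unit element. Hsp90aa1, also counted so, had no window. Shorter 2-unit matches were present in Hspb1, Hspb8 and Bag3 (GAANNTTC) and in Hspa4l (TTCNNGAA), but not in Hspa1a. GAANNTTC was present in 21.5% of the members' promoters and 8.34% of all, and TTCNNGAA in 18.5% and 8.49%. Hspa8 had the 3-unit element at positions -213 and -55, counted from the start site, while Cct4 had it at 26, inside the transcribed part. The matches of Hspd1 start at -242 and -237 and overlap. Hspd1 and Hspe1 are neighbours that face away from each other, their windows share 211 bases, and the same element was read in both. Of the genes with the endoplasmic reticulum element, Hspa5 and Dnajc3 were above background and Hsp90b1, with matches starting at -176 and -72, was below. A match describes these letters and shows no binding.

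Both cytosolic HSP90 genes were above background, at nearly the same signal on all arrays. Hsp90aa1, the inducible form, read 10.19 in SOR-PLT, 10.19 in LEN-PLT and 10.21 in PLT. Hsp90ab1, the constitutive form, read 10.02 in SOR-PLT, 9.93 in LEN-PLT and 10.01 in PLT. Both genes had arrays at most 0.09 apart. Hsp90b1, the form of the endoplasmic reticulum, read 3.57 in SOR-PLT, 3.24 in LEN-PLT and 3.27 in PLT, all far under background. RefSeq lists 16 pseudogenes named after Hsp90aa1 and 23 named after Hsp90ab1, so their features may also detect copies.

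Among HSP70 genes, Hspa8, which encodes the constitutive Hsc70, gave strong signal. It read 16.96 in SOR-PLT, 16.78 in LEN-PLT and 16.81 in PLT, so that SOR-PLT was higher than PLT by 0.15 and LEN-PLT lay at -0.03. Its feature carries an identifier that marks it as unmapped, and RefSeq lists 33 pseudogenes named after it, so this value is uncertain. Hspa4, an exchange factor of the HSP110 kind, read 10.90 in SOR-PLT, 10.88 in LEN-PLT and 10.90 in PLT. Hspa5 encodes BiP, the HSP70 of the endoplasmic reticulum, and read 9.58 in SOR-PLT, 9.43 in LEN-PLT and 9.36 in PLT. Both drug arrays were above PLT for Hspa5, by 0.23 and 0.08, a 1.17-fold and a 1.06-fold difference.

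The other 9 genes of the HSP70 and HSP110 family lay below background. Hspa9, the mitochondrial HSP70, read 6.53 in SOR-PLT, 6.49 in LEN-PLT and 6.53 in PLT. Hspa1a, the classic heat-inducible HSP70, read 3.26 in SOR-PLT, 3.23 in LEN-PLT and 3.26 in PLT, so its feature gave no signal above background on any array. Its neighbour on the chromosome, Hspa1l, a testis form, read 3.42 in SOR-PLT, 3.87 in LEN-PLT and 3.29 in PLT. Hspa2, another testis form, read 5.91 in SOR-PLT, 5.67 in LEN-PLT and 5.53 in PLT. The remaining genes, Hspa4l, Hspa12a, Hspa13, Hspa14 and Hsph1, read at most 5.08 on any array. Over the whole family SOR-PLT was higher than PLT for 6 genes, lower for 2 and tied for 4, with a median of 0.06. LEN-PLT was higher for 7 and lower for 5, with a median of 0.07. Over all named genes SOR-PLT was higher for 5254, lower for 5192 and tied for 4591, with a median of 0.00. LEN-PLT was higher for 5326, lower for 5275 and tied for 4436, also with a median of 0.00. Over the family's 3 genes above background the medians were 0.15 in SOR-PLT and -0.02 in LEN-PLT. The family counts thus rest mostly on genes below background.

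None of the 7 small heat shock protein genes was above background. These proteins hold unfolded clients without using ATP, and Hspb2, Hspb3, Hspb6 and Hspb7 are best known from muscle. Their signals ran from 2.74 to 5.12 on each of the 3 arrays. Relative to PLT, 3 genes were lower and 4 tied in SOR-PLT, and the same counts held in LEN-PLT. The widest spread between arrays was 0.30. At such signals these counts describe the background.

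Both genes of the mitochondrial chaperonin were above background. Hspe1, the HSP10 lid, read 10.44 in SOR-PLT, 10.41 in LEN-PLT and 10.41 in PLT. Hspd1, the HSP60 ring, read 9.70 in SOR-PLT, 9.96 in LEN-PLT and 9.90 in PLT. For Hspd1 SOR-PLT was the low array, at -0.21 against PLT and -0.27 against LEN-PLT, while its neighbour Hspe1 was higher by 0.03 in SOR-PLT than in either. RefSeq lists 20 pseudogenes named after Hspd1. The other mitochondrial members listed, Hspa9 and 4 J-domain genes, were below background.

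Of the CCT group, named after the chaperonin that folds actin and tubulin, 2 of 9 genes were above background and close to it. Cct8l2 is counted in this group by its symbol alone. Cct8 read 7.91 in SOR-PLT, 7.90 in LEN-PLT and 7.90 in PLT. Cct5 read 7.86 in SOR-PLT, 7.71 in LEN-PLT and 7.86 in PLT. Cct4 read 5.97 in SOR-PLT, 5.97 in LEN-PLT and 5.21 in PLT, so both drug arrays were 0.76 above PLT, a 1.70-fold difference at a signal below background. Cct3 was above PLT in SOR-PLT alone, at 5.67 in SOR-PLT, 5.23 in LEN-PLT and 5.23 in PLT. Cct6a was below PLT in both, at 3.82 in SOR-PLT, 3.82 in LEN-PLT and 4.34 in PLT. Cct2, Cct7, Cct6b and Cct8l2 had arrays at most 0.12 apart. The median difference of the group was 0.00 in both drug arrays.

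Among BAG genes, Bag6 was the member above background with the largest difference. Bag6 guards hydrophobic segments of newly made proteins. It read 14.91 in SOR-PLT, 14.93 in LEN-PLT and 14.66 in PLT, so both drug arrays lay above PLT, by 0.25 and 0.28, a 1.19-fold and a 1.21-fold difference. Bag1, an exchange factor of HSP70, read 6.96 in SOR-PLT, 7.03 in LEN-PLT and 6.52 in PLT. Bag5 read 6.61 in SOR-PLT, 6.61 in LEN-PLT and 6.31 in PLT. These 3 genes were higher in both drug arrays than in PLT, but Bag1 and Bag5 were below background. Bag2, which restrains the ubiquitin ligase CHIP, was lower in both drug arrays, at 3.81 in SOR-PLT, 3.63 in LEN-PLT and 4.32 in PLT. Bag3, a heat-inducible partner of HSP70 in selective autophagy, read 4.19 on each array, and Bag4 read 5.38 on each.

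The J-domain proteins, which hand clients to HSP70 and set off its ATP hydrolysis, had 7 of 39 genes above background. Dnajb2, a ubiquitin-binding J protein, read 13.73 in SOR-PLT, 13.73 in LEN-PLT and 13.77 in PLT. Dnaja4 read 13.70 in SOR-PLT, 13.56 in LEN-PLT and 13.80 in PLT, so both drug arrays were below PLT, by -0.10 and -0.24 as differences. Dnajc3, a J protein of the endoplasmic reticulum, read 12.92 in SOR-PLT, 13.09 in LEN-PLT and 13.09 in PLT. For Dnajc3 SOR-PLT was the low array, at -0.17. Dnajb12, anchored in the membrane of the endoplasmic reticulum, read 11.85 in SOR-PLT, 11.95 in LEN-PLT and 11.85 in PLT. Dnajc7, which binds both HSP70 and HSP90, read 11.85 in SOR-PLT, 11.77 in LEN-PLT and 11.77 in PLT. Dnajb6, which suppresses protein aggregation, read 9.41 in SOR-PLT, 9.41 in LEN-PLT and 9.37 in PLT, and Dnaja2 read 7.89 on all arrays. Dnajb12, Dnajc7 and Dnajb6 had arrays at most 0.10 apart. The family had a median difference of 0.00 in both drug arrays, with 10 genes higher, 13 lower and 16 tied in SOR-PLT and 13, 12 and 14 in LEN-PLT.

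**Figure D3:**
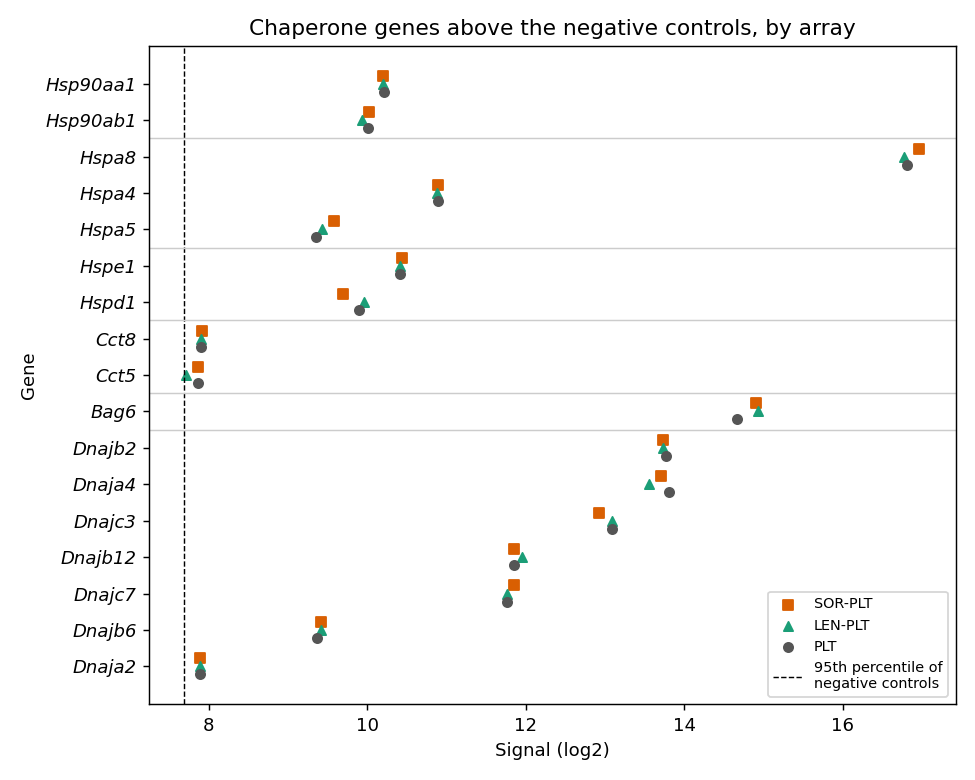
Log2 signal (x axis) of the 17 chaperone genes above background (dashed line, 95th percentile of negative controls), by family from HSP90 at the top to J-domain proteins at the bottom, with 1 point for each of SOR-PLT, LEN-PLT and PLT. For each gene the 3 points lie within 0.28, as for Bag6, where PLT is the low array.

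The 5 members with arrays at least 1.5-fold apart were all below background. Dnajc10, a J protein and disulfide reductase of the endoplasmic reticulum, read 5.82 in SOR-PLT, 6.10 in LEN-PLT and 5.13 in PLT. Both drug arrays were above PLT for Dnajc10, by 0.69 and 0.98, which in LEN-PLT is just under 2-fold. Cct4, given above, was higher by 0.76 in both. Hsph1, an HSP110 exchange factor induced by heat, read 4.07 in SOR-PLT, 3.77 in LEN-PLT and 3.37 in PLT, with differences of 0.70 and 0.40. Dnajc19, part of the motor that imports proteins into mitochondria, read 6.52 in SOR-PLT, 6.52 in LEN-PLT and 7.14 in PLT, a difference of -0.62 in each. Bag2 had differences of -0.51 in SOR-PLT and -0.69 in LEN-PLT. PLT alone was the highest or the lowest array for each of the 5 genes, as it was for 891 of the 1324 named genes with arrays this far apart (67.3%). Among 3 arrays the ends are always taken by some array. The same shares for SOR-PLT and LEN-PLT were not counted, so whether PLT stands apart by this share was not tested. Just short of the threshold were Dnajb14 in SOR-PLT, at -0.581, and Dnajc2 and Hspa1l in LEN-PLT, at -0.579 and 0.574. Among genes below background, 2.27% were 1.5-fold higher and 2.27% lower in SOR-PLT, and 2.56% and 2.39% in LEN-PLT.

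**Figure D4:**
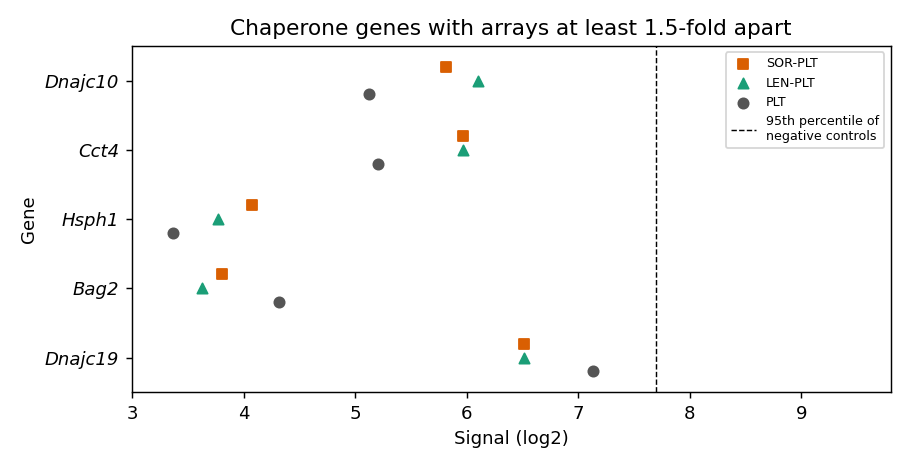
Log2 signal (x axis) in SOR-PLT, LEN-PLT and PLT of the 5 chaperone genes whose highest and lowest arrays are at least 1.5-fold apart, 1 array a group. All points lie left of the dashed line, the 95th percentile of negative controls.

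Grouped by compartment, the members gave similar counts. Of 9 measured members of the endoplasmic reticulum, 2 were above background, and the median difference was 0.00 for both drugs. Of 7 mitochondrial members 2 were above background, with medians of 0.00 as well. The list of heat-inducible members also holds the constitutive Hspa8. Without it 3 of 9 measured genes were above background, Hsp90aa1, Hspd1 and Hspe1. Of these 9 genes 2 were higher, 3 lower and 4 tied in SOR-PLT, and 3 were higher, 2 lower and 4 tied in LEN-PLT, with medians of 0.00.

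Partners of the chaperones that the symbol rule left out were read in the same way, and other organelle chaperones are given further below. Of 14 measured co-chaperones of HSP70 and HSP90, 3 were above background. Cdc37, which brings kinases to HSP90, read 8.35 in SOR-PLT, 8.48 in LEN-PLT and 8.22 in PLT. Stub1, the ubiquitin ligase CHIP, read 9.28 in SOR-PLT, 9.32 in LEN-PLT and 9.28 in PLT, and Chordc1 read 8.90 in SOR-PLT, 8.92 in LEN-PLT and 8.90 in PLT. In the list 0 of 14 genes were 1.5-fold apart, beside 8.80% of all named genes. A list of 14 genes is too short to be set apart from that share. The furthest, Ppid, a cyclophilin bound to HSP90, read 5.55 in SOR-PLT, 5.55 in LEN-PLT and 4.98 in PLT. Of 7 measured chaperonin partners 0 were above background, and Tcp1, the CCT subunit that the rule does not match, read 5.20 on each array. Of 4 genes of the heat shock factor list, Hsbp1, a binding protein of heat shock factor 1, was above background, at 12.03 in SOR-PLT, 11.88 in LEN-PLT and 11.95 in PLT. Hsf1 itself read 5.68 in SOR-PLT, 5.49 in LEN-PLT and 5.32 in PLT. Hsf2 was the gene of that list 1.5-fold apart, between the drugs, at 3.86 in SOR-PLT, 4.65 in LEN-PLT and 4.28 in PLT.

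The arrays of sorafenib and lenvatinib, given at the same mass and for the same time, were then compared. Both drug arrays had exactly the same value for 24 members, and for 10 of these PLT differed. Of all named genes 32.1% were tied between the drugs and 17.3% had the same value on all arrays. The share of all named genes tied between the drugs with PLT different was not counted, so nothing particular to chaperones follows. Above background SOR-PLT was higher than LEN-PLT for 9 of 17 members, lower for 4 and tied for 4, with a median of 0.01. Of the 1961 named genes above background, SOR-PLT was higher for 675, lower for 839 and tied for 447, with a median of 0.00. The widest of these differences were -0.27 for Hspd1 and 0.18 for Hspa8. Among members below background the differences between the drugs ran from -0.47 to 0.46. With 1 array for each drug no test or interval of these differences can be given.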

How the data were processed

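Labelling used biotin, per the labels. The authors deposited log2 signals for 23188 features, whose background correction, probe summary and normalization are not given in the sources used here. A second table, the series value table, with 24834 features including controls, matched the deposited log2 matrix within 5e-05. Gene names came from the platform annotation: 15049 features had 1 symbol, 0 had several and 8139 had none. The feature with the highest mean was kept per gene. All 78 members had a record in RefSeq (GRCr8), used for names, neighbours and pseudogene counts.

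Groups came from the treatment label, with 1 array each, so differences and counts past 1.5-fold and 2-fold are described without a test. The members and lists were chosen with earlier results of these data known. Members were named if above background, 1.5-fold apart, among the 10 highest, at the ceiling, or in the HSP90, HSP70 and HSP110, mitochondrial chaperonin, CCT or BAG families. Up to 4 genes were named from each related list. Naming small heat shock protein genes, Dnajb14, Dnajc2, Stub1, Cdc37, Chordc1 and Tcp1 was decided with their values in view. Alternatives were median centring, quantile and cyclic loess normalization (limma 3.58.1, R 4.3.3), the mean of a gene's features, filters on low signal, the series value table, and means instead of medians. Counting at 2-fold was tested on simulated data without exact ties, with planted shifts well past 2-fold. Calls close to 2-fold and counting at 1.5-fold were not tested.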

Additional observations from a re-analysis of the deposited data

How the results depend on the processing

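Of 112 alternative values, 47 could not move: each member has 1 feature (16 values), the series value table holds the same values (15), or a filter was applied to a count of 0 (16). Of the other 65, 58 stayed close to those reported, a median within 0.05 or a count within 1.5 times. No member was 2-fold apart under any alternative run. With median centring, 2 members in place of 1 were 1.5-fold lower in SOR-PLT than in PLT. For LEN-PLT the members 1.5-fold lower were 3 in place of 2 under median centring, quantile and cyclic loess normalization alike. That change counts as close only because it lies at the limit of 1.5 times. Over members above the median of all genes, 1 in place of 2 was 1.5-fold lower in LEN-PLT, since fewer genes were tested. Over members above background, 0 were 1.5-fold higher and 0 lower in either drug array, where the reported counts are 3 and 1 for SOR-PLT and 2 and 2 for LEN-PLT. At the 99th percentile of the negative controls 4 members remained above background in place of 17. No paired analysis was possible because each group has 1 array. Signal over background limits 61 of 78 members, whose differences lie among low signals.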

Other observations

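Other chaperones of the endoplasmic reticulum and mitochondria, outside the symbol rule, were also read. Of 15 measured, 3 were above background, all of the endoplasmic reticulum. Pdia3, a disulfide isomerase that serves glycoproteins, read 16.24 in SOR-PLT, 16.38 in LEN-PLT and 16.42 in PLT. Canx, calnexin, which holds glycoproteins for folding, read 14.21 in SOR-PLT, 14.46 in LEN-PLT and 14.46 in PLT. Calr, calreticulin, its soluble counterpart, read 14.14 in SOR-PLT, 13.95 in LEN-PLT and 14.16 in PLT. For these 3 genes neither drug array was above PLT.

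Clpx, the unfoldase of a mitochondrial protease, was 2-fold apart between SOR-PLT and PLT, at 4.84 in SOR-PLT, 4.56 in LEN-PLT and 3.83 in PLT, and lay below background. Hscb, a mitochondrial J protein for iron-sulfur clusters whose symbol the rule does not match, read 3.73 in SOR-PLT, 4.19 in LEN-PLT and 3.58 in PLT, also below background. The median difference of the 15 genes was 0.00 for both drugs.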
